A study of Mus musculus with 4 samples.

Results

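The 40 genes described here encode the machinery of fatty acid oxidation and of the peroxisome: acyl-CoA synthetases and thioesterases, the carnitine shuttle, the enzymes of mitochondrial beta-oxidation, the peroxisomal branch of the pathway and 4 peroxins. They were found by gene symbol from a list. No threshold on measured values entered the rule, but the list was drawn up with earlier results of these data known. All 40 were found, each on 1 row, among the 55487 genes of the deposited table. Genes whose normalized read count reached 10 in 2 or more libraries were tested, which were 39 of the 40 and 16589 genes in all. RNA came from freshly isolated pancreatic islets of C57BL/6 mice aged 30 weeks. All mice carried Ggcx flox/flox alleles. The 2 control libraries came from mice with no further allele named in the labels, and the 2 knockout libraries from mice that also carried Pdx1-Cre, a transgene active in the pancreatic lineage and so not only in beta cells. Each library was made from the pooled islets of 2 mice, so that n = 2 pools per genotype, and no group carried Cre without the floxed alleles.

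Long-chain fatty acids are activated to acyl-CoA at membranes of the cell's organelles and enter mitochondria as carnitine esters. There each turn of beta-oxidation removes 1 acetyl-CoA through dehydrogenation, hydration, a further dehydrogenation and thiolysis, and electrons pass to the respiratory chain through the electron transfer flavoprotein. Peroxisomes shorten very long, branched and unsaturated chains with a parallel set of enzymes, which are imported by peroxins. In beta cells, malonyl-CoA made from glucose restrains the carnitine shuttle, and the short-chain hydroxyacyl-CoA dehydrogenase encoded by Hadh restrains amino acid-stimulated insulin release.

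The libraries held 47624630 to 51756221 reads assigned to genes. Normalized counts of Ggcx were 3971 and 3981 in the controls and 234 and 643 in knockout replicates 1 and 2. The log2 fold change was -3.35 ± 0.35 (standard error; limma adjusted p = 0.0163). At the same fold this call was lost with no filter on low values, with no variance trend and with robust moderation (limma adjusted p = 0.217, 0.329 and 0.294). The beta cell markers Ins1, Ins2, Mafa, Slc2a2, Ucn3 and Nkx6-1 were all measured, and none of the 6 passed the test. Their median log2 fold change was -0.07, with 2 above 0. Slc2a2 had counts of 31910 and 32334 in controls and 27942 and 29092 in knockouts (-0.17 ± 0.05; limma adjusted p = 0.155). All 12 acinar markers had lower means in knockout islets (median log2 fold change -0.75, 1 called), with summed counts of 15164 and 16938 in controls and 7281 and 12557 in knockouts. All 7 stellate and fibroblast markers had higher means (median 0.81, 1 called), with sums of 1543 to 2048 in controls and 2443 to 3319 in knockouts. Of all tested genes, 0.621% were called. At an unadjusted p under 0.05 (limma), 12 acinar markers were lower and 0 higher, against 7.34% of all tested genes lower. For stellate and fibroblast markers 6 were higher and 0 lower, against 6.74% of all tested genes higher. The means of all 5 alpha cell markers (median 0.51, 1 called), all 3 delta cell markers (median 0.11, 1 called) and all 4 Schwann cell markers (median 0.41, 0 called) were also higher. With 0 called, the medians were 0.30 for duct, 0.05 for endothelial and -0.02 for macrophage markers, each with genes in both directions. The PP cell marker Ppy stood at 0.45 ± 0.19 (limma adjusted p = 0.319). Of the 4 adipocyte markers, Adipoq and Plin1 had 0 reads in every library, Cidec was too low to test, and Fabp4 had counts of 279 and 181 in controls and 338 and 417 in knockouts (0.74 ± 0.19; limma adjusted p = 0.122). The part of these cell types in the values below was not tested, and in bulk RNA fewer cells of a type and less RNA per cell cannot be told apart.

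Promoter windows were available for 34 of the 40 genes (38 windows of 300 bases at RefSeq start sites, mostly upstream, GRCm38.p6). Of these, 4 are shown because the expression values turn on these genes. They include the window of Hadhb, which overlaps in part that of its trifunctional protein partner Hadha, and that of Hadh, the most abundant of the 40. The others are those of the paralogues Cpt1a and Cpt1c, which stood far apart in level. Capitals mark the GC box GGGCGG, the promoter element CCAAT and the nuclear receptor half-site AGGTCA on either strand, and sequences run 5′ to 3′ on the strand of the gene.
Hadhb, chr5:30155003-30155302, plus strand: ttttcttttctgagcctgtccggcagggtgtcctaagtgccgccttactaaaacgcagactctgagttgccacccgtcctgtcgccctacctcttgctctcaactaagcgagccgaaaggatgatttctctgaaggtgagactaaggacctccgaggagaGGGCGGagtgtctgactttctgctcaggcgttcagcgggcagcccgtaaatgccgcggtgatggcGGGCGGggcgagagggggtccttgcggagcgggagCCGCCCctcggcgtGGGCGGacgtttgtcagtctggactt
Hadh, chr3:131272052-131272351, minus strand: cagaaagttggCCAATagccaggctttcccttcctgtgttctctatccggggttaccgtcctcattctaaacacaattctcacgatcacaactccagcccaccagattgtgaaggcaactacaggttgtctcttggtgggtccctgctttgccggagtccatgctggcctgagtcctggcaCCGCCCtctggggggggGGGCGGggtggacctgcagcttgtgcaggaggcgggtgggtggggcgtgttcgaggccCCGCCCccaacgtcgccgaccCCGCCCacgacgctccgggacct
Cpt1a, chr19:3323051-3323350, plus strand: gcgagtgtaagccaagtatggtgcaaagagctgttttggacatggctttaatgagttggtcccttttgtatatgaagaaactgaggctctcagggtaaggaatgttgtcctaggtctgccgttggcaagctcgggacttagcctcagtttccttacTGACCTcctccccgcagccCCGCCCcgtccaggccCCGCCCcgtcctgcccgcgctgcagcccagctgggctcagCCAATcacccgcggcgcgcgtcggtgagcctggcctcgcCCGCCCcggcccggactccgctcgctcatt
Cpt1c, chr7:44974802-44975101, minus strand: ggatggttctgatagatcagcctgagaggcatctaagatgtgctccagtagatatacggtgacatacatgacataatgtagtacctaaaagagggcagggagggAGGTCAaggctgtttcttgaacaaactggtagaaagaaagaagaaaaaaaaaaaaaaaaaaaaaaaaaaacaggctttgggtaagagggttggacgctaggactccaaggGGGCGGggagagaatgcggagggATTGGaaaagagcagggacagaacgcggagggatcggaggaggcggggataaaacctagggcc

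Hadha and Hadhb lie head to head on chromosome 5. Their RefSeq starts were 273 bases apart on opposite strands, and their windows shared 228 bases. These are the first 228 bases of the Hadhb window printed above, and not all of its GC boxes lie within them. The Hadhb window held 4 GC boxes and 24 CpG dinucleotides, the Hadh window 4 and 17, the Cpt1a window 3 and 22, and the Cpt1c window 1 and 8. Over the 38 windows the median was 17 CpG dinucleotides (range 4 to 45), against 19 in 15254 windows of tested genes and 7 in all 32851 windows. A GC box stood in 28 of 38 windows, against 59.5% of the windows of tested genes, and TATAAA in 1, that of Pex14, against 7.79%. The DR1 element to which PPAR-RXR dimers bind, searched as AGGTCANAGGTCA and more loosely as AGGNCANAGGNCA on both strands, had 0 matches in the 38 windows. Among the windows of tested genes it was found in 0.0393% and 0.223%. The half-site AGGTCA stood in 6 windows (Acadm, Acadvl, Cpt1a, Cpt1c, Echs1 and Scp2), against 12.6%, and each DR1 match also holds such a half-site or a variant of it. These are letter matches within 300 bases and say nothing of sites outside them.

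To compare levels between genes, reads were divided by exon length and put on the TPM scale, with a common sum per library. This level per length spread far more widely among the genes than among the libraries (plot of levels by role). Hadh was the highest, at 382 ± 24.4 (SD, n = 2) in the control pools and 349 ± 1.78 (SD, n = 2) in the knockout pools, rank 148 of 16589 tested genes. Abcd3 (77.3 ± 0.726 in controls), Scp2 (70.5 ± 0.701) and Etfa (64.2 ± 1.97) followed, and Cpt1c (2.33 ± 0.215) and Acot1 (0.523 ± 0.241) were the lowest tested (SD, n = 2 each). The summed level of the 40 genes was 1296 and 1343 in controls and 1280 and 1260 in knockouts. Exon length merges all annotated transcripts, which lowers genes with long alternative forms. By the length of the principal transcript, a choice made after the data were seen, Hadh stood at 767 in place of 366 (mean of 4 libraries), Cpt1a at 20.9 in place of 15.6 and Echs1 at 37.3 in place of 9.29.

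**Figure D1:**
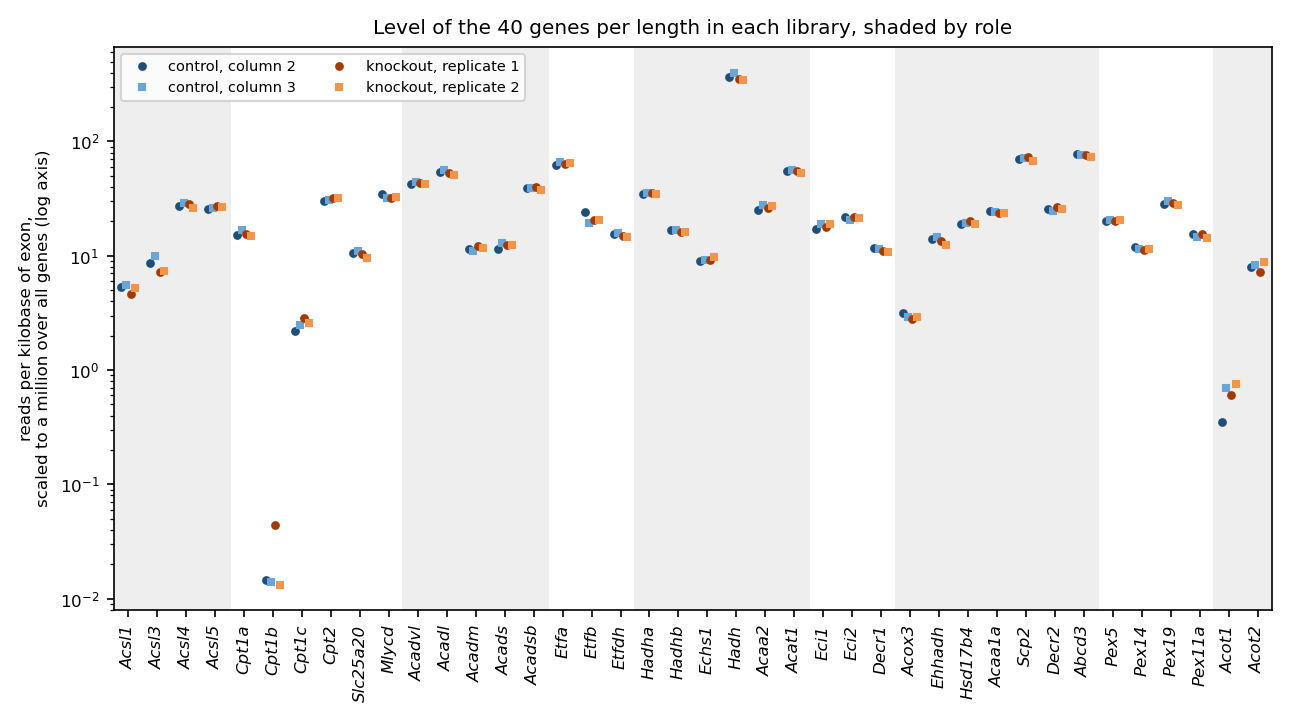
Level per length (reads per kilobase of exon on the TPM scale, log axis) of each of the 40 genes in the 4 libraries, with alternate shading for the roles in the order of the text: activation, carnitine shuttle, acyl-CoA dehydrogenases, electron transfer flavoprotein, hydratases to thiolases, auxiliary enzymes, peroxisomal enzymes, peroxins and thioesterases. The 4 points of a gene nearly coincide except for Cpt1b and Acot1, and Hadh lies above all others.

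The comparison of knockout with control islets asked whether any step of the pathway differed with genotype. Of the 39 tested genes 0 passed (limma, adjusted p under 0.05), where 0.621% of all tested genes did (0.247% higher and 0.374% lower). On the recovered reads edgeR and DESeq2 also called 0 of the 39. At an unadjusted p under 0.05 there were 2 genes, Acsl3 (lower) and Cpt1c (higher), or 5.13%, against 14.1% of all tested genes (6.74% higher and 7.34% lower). The values of the genotypes did not overlap for 16 genes, 11 higher and 5 lower, or 41.0% against 45.0% of all tested genes (22.0% higher and 23.0% lower). The median log2 fold change was 0.01, and 0.00 over all tested genes, with 24 genes above 0 and 15 below. The 95% interval of the fold change stayed within 1.25-fold in either direction for 36 of 39 genes, and within 1.5-fold for 38 (plot of fold changes). Over all tested genes these shares were 50.7% and 71.2%. In the authors' deposited table, 0 of the 38 genes with an adjusted p were under 0.05, where 314 genes of the whole table were. The lowest adjusted p of the 38 was 0.29, for Acsl3.

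**Figure D2:**
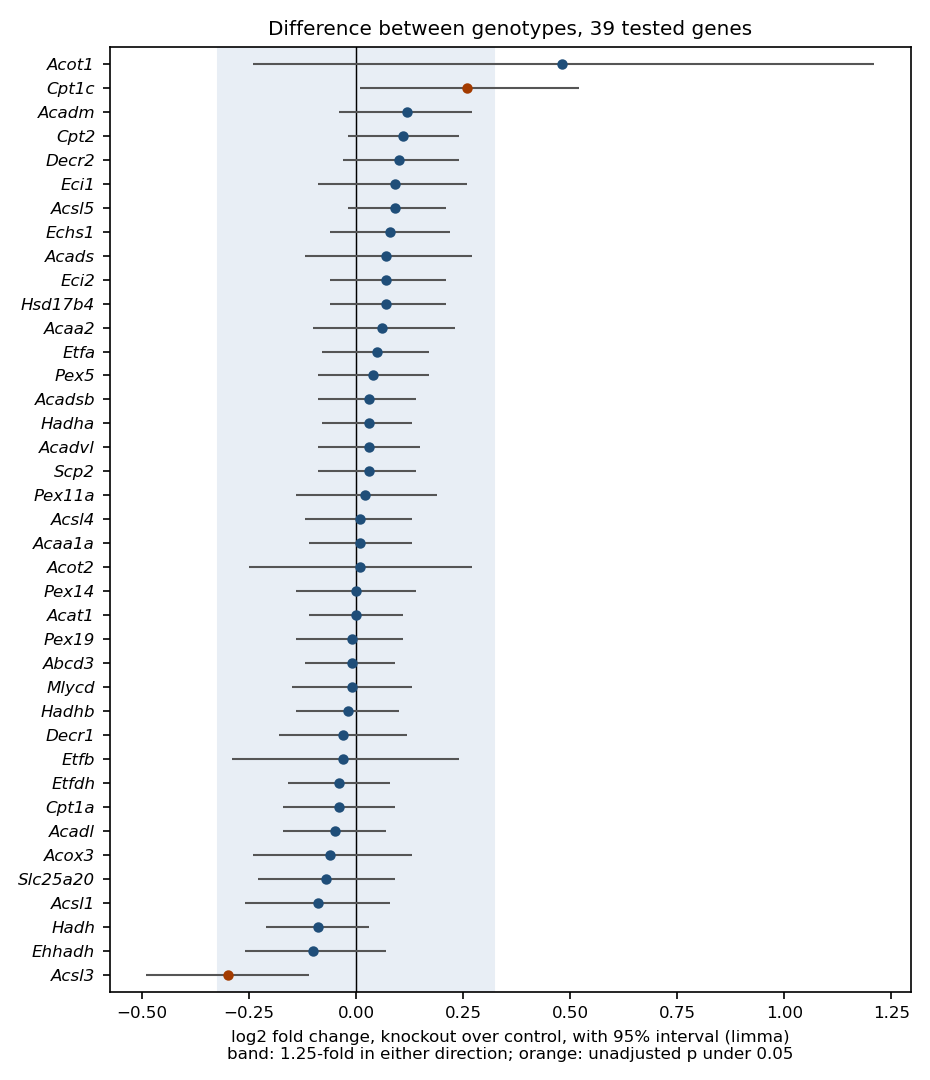
Log2 fold change (knockout over control, x axis) with its 95% interval from limma for the 39 tested genes, sorted by value, with a band at 1.25-fold in either direction. The intervals of Acsl3, Cpt1c and Acot1 reach beyond the band, and those of the other 36 lie within it.

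Differences between libraries and between genotypes were smaller for these genes than for all tested genes at the median. The median absolute log2 difference of the 39 genes was 0.050 between the control libraries, 0.048 between the knockout libraries and 0.045 between the genotype means. Over all tested genes these medians were 0.106, 0.089 and 0.096. Means of 2 libraries differ less by chance than single libraries do, so the genotype medians are not to be read against the medians within a genotype. Low counts vary more, so genes with a mean value of at least 200 were also compared, a limit chosen after the data were seen. The medians of the 38 genes above it were 0.046, 0.045 and 0.043, against 0.075, 0.062 and 0.068 over 11038 genes (plot of library differences). Of these 38 genes 36 had intervals within 1.25-fold, against 75.9% of the 11038. This floor does not match the 2 sets in level above it, and the part of counts in the remaining gaps was not tested.

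**Figure D3:**
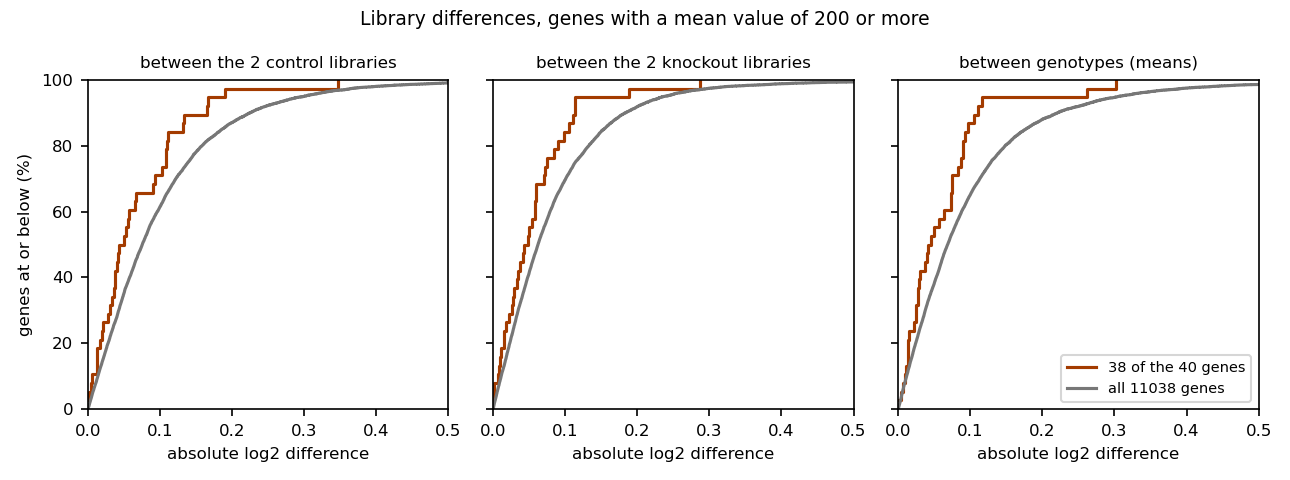
Cumulative share of genes (y axis, %) by absolute log2 difference (x axis, drawn to 0.5) between the control libraries, between the knockout libraries and between genotype means, for genes with a mean value of at least 200. The curve of the 38 pathway genes lies mostly above and to the left of that of all 11038 genes in each of the 3 panels, with medians of 0.046, 0.045 and 0.043 against 0.075, 0.062 and 0.068.

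Long-chain acyl-CoA synthetases, which activate fatty acids, gave the lowest p of the set. Acsl3 (ENSMUSG00000032883; GRCm38 chromosome 1, 78657825 to 78707743), an enzyme of the endoplasmic reticulum and lipid droplets, had normalized counts of 775 and 884 in controls and 658 and 685 in knockouts. Utp14b on the same strand covers 5.6% of the exon bases of Acsl3. It had counts of 532 and 600 in controls and 494 and 551 in knockouts, and its part in the Acsl3 counts was not tested. For Acsl3, both knockout libraries lay below both controls. The log2 fold change was -0.30 ± 0.09 (95% interval -0.49 to -0.11) with an unadjusted p of 0.00651, and it did not pass after adjustment (limma adjusted p = 0.150). Over the limma, edgeR and DESeq2 alternatives the adjusted p ran from 0.0581 (without control column 2) to 0.432 (without the mean-variance trend). Acsl4, which prefers arachidonate, was the most abundant synthetase by exon length (27.7, against 26.3 for Acsl5, means of 4 libraries) but not by the length of the principal transcript (21.4, against 22.8 for Acsl5). It had counts of 3057 and 3179 in controls and 3214 and 3050 in knockouts, which overlapped. Acsl5 stood at 0.09 ± 0.05 and Acsl1 at -0.09 ± 0.08 on the log2 scale. The 4 synthetases together were level at 66.7 and 70.4 in controls and 67.1 and 65.6 in knockouts (summed level per length).

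The outer-membrane step of the carnitine shuttle has 3 isoforms, of which Cpt1a had the highest level in all 4 libraries. Cpt1a, a malonyl-CoA-sensitive carnitine palmitoyltransferase (GRCm38 chromosome 19, 3322334 to 3385733), had counts of 2431 and 2623 in controls and 2491 and 2431 in knockouts. The values overlapped, with a log2 fold change of -0.04 ± 0.06 (95% interval -0.17 to 0.09; limma adjusted p = 0.832). Cpt1c, a form best known from brain with little transferase activity, had counts of 253 and 284 in controls and 335 and 310 in knockouts, which did not overlap. Its log2 fold change was 0.26 ± 0.11 (95% interval 0.01 to 0.52; limma adjusted p = 0.340). Per length Cpt1a exceeded Cpt1c 7.02- and 6.77-fold in controls and 5.46- and 5.75-fold in knockouts.

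Cpt1b, the muscle form, was the 1 gene that failed the filter, with 1 read in each control and 3 and 1 reads in the knockouts. In the GENCODE annotation, 81.4% of its exon bases also belong to Gm44502, a gene model on the same strand that had 0 reads in every library. How reads over 2 genes were counted is not given in the sources used here, so the low value of Cpt1b does not show that the transcript was absent. Cpt2, which returns acyl groups to coenzyme A inside the mitochondrion, stood at 0.11 ± 0.06, and the carnitine-acylcarnitine carrier Slc25a20 at -0.07 ± 0.07. Mlycd, which breaks down malonyl-CoA and was the most abundant of this role per length, had counts of 2151 and 1962 in controls and 2000 and 2083 in knockouts, with a log2 fold change of -0.01 ± 0.06.

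The acyl-CoA dehydrogenases begin each turn of mitochondrial beta-oxidation and are graded by chain length. None of the 5 passed the test, and 4 were above 0. Acadl, for long chains, led per length with counts of 2256 and 2310 in controls and 2213 and 2199 in knockouts, a log2 fold change of -0.05 ± 0.05. Acadvl, for very long chains, had 2375 and 2407 in controls and 2438 and 2439 in knockouts, or 0.03 ± 0.05. The genotypes did not overlap for either gene, at changes of a few percent and in opposite directions. Acadm for medium chains stood at 0.12 ± 0.07, Acads for short chains at 0.07 ± 0.09 and Acadsb, which acts on short branched chains of amino acid breakdown, at 0.03 ± 0.05. Exons of Dvl2 on the opposite strand cover 42.9% of the exon bases of Acadvl, and the strand setting of the counting is not given in the sources used here.

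The electron transfer flavoprotein accepts electrons from these dehydrogenases and hands them on through its membrane oxidoreductase, encoded by Etfdh. Etfa, the alpha subunit, had counts of 2392 and 2461 in controls and 2452 and 2555 in knockouts, a log2 fold change of 0.05 ± 0.05. Etfb, the beta subunit, ranged from 457 to 581 in controls, wider than the knockouts at 499 and 513, and stood at -0.03 ± 0.12. The ratio of Etfa to Etfb per length was 2.61 and 3.42 in controls and 3.11 and 3.17 in knockouts. Gm45233 on the same strand covers 53.0% of the exon bases of Etfb, so this ratio may not give the balance of the subunit transcripts. Etfdh stood at -0.04 ± 0.05.

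The remaining steps of the mitochondrial spiral held the most abundant gene of the set. Hadh (ENSMUSG00000027984; GRCm38 chromosome 3, 131233419 to 131272101) had counts of 37700 and 40643 in controls and 36642 and 36931 in knockouts. Both knockout values lay below both controls, but the controls differed from each other by more than the lower control differed from the knockouts. The log2 fold change was -0.09 ± 0.05 (95% interval -0.21 to 0.03; limma adjusted p = 0.527). The interval puts the knockout level between 0.86 and 1.02 of control.

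Hadha and Hadhb, the alpha and beta subunits of the trifunctional protein that acts on long chains, kept a near-constant ratio over the libraries. Hadha had counts of 6329 and 6336 in controls and 6443 and 6444 in knockouts, and Hadhb 2315 and 2247 in controls and 2251 and 2263 in knockouts. Hadha did not overlap between genotypes, at a log2 fold change of 0.03 ± 0.05, and Hadhb did, at -0.02 ± 0.05. Their ratio per length was 2.07, 2.13, 2.17 and 2.15 in the 4 libraries. This ratio depends on the exon lengths used and on Gm13910, with which Hadhb shares 18.1% of its 50-base windows. Echs1, the short-chain enoyl-CoA hydratase, stood at 0.08 ± 0.06, the thiolase Acaa2 at 0.06 ± 0.07 and Acat1, which splits acetoacetyl-CoA, at 0.00 ± 0.05. The summed level of these 6 genes was 506 and 545 in controls and 492 and 488 in knockouts, of which Hadh was by far the largest share.

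The auxiliary enzymes prepare unsaturated chains for the spiral. Eci2, an enoyl-CoA isomerase of mitochondria and peroxisomes, was the highest per length of the 3, with counts of 2523 and 2335 in controls and 2563 and 2550 in knockouts. It stood at 0.07 ± 0.06, its mitochondrial relative Eci1 at 0.09 ± 0.08 and the dienoyl-CoA reductase Decr1 at -0.03 ± 0.07. Their summed level was 50.8 in both controls and 51.0 and 51.5 in knockouts.

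Among the 7 peroxisomal enzymes and transporters, 0 passed the test and log2 fold changes ran from -0.10 to 0.10. Abcd3, the membrane transporter that takes in long branched and dicarboxylic acyl groups, had counts of 10649 and 10351 in controls and 10467 and 10335 in knockouts. Its log2 fold change was -0.01 ± 0.05, and the values overlapped. The bifunctional enzymes that follow the oxidases stood in opposite directions. Ehhadh, the L-form, had counts of 864 and 887 in controls and 843 and 795 in knockouts (-0.10 ± 0.07), and Hsd17b4, the D-form, 1347 and 1335 in controls and 1437 and 1385 in knockouts (0.07 ± 0.06). Neither overlapped between genotypes and neither passed the test (limma adjusted p = 0.612 and 0.650), and the difference between them was not tested.

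Acox3, an oxidase for branched chains, stood at -0.06 ± 0.08, the thiolase Acaa1a at 0.01 ± 0.05, Scp2, which encodes a thiolase and a sterol carrier protein, at 0.03 ± 0.05 and the peroxisomal dienoyl-CoA reductase Decr2 at 0.10 ± 0.06. Scp2 shares 29.7% of its 50-base windows with the pseudogene Scp2-ps2, and Acaa1a 12.4% with Acaa1b, so part of their reads may be shared with these copies. The summed level of the 7 genes was 234 and 233 in controls and 235 and 224 in knockouts.

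The peroxins were equally level. Pex19, the chaperone of peroxisomal membrane proteins, was the highest per length, with counts of 2263 and 2343 in controls and 2316 and 2248 in knockouts. Pex11a, a factor in peroxisome division that responds to PPAR-alpha in liver, had 1014 and 950 in controls and 1030 and 963 in knockouts, a log2 fold change of 0.02 ± 0.07. Both overlapped between genotypes. Pex5, the import receptor for matrix enzymes, stood at 0.04 ± 0.06 and Pex14, its docking partner, at 0.00 ± 0.06. An antisense gene, Gm17029, covers 28.3% of the exon bases of Pex14.

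The acyl-CoA thioesterases, which release free fatty acids from coenzyme A, included the gene with the widest interval of the 39, Acot1. Acot2, the mitochondrial form, had counts of 366 and 370 in controls and 336 and 410 in knockouts, with a log2 fold change of 0.01 ± 0.11. Its cytosolic neighbour Acot1 had 28 and 57 reads in controls and 48 and 66 in knockouts, which overlapped. The normalized control values of Acot1 differed by 0.933 on the log2 scale, more than the genotype difference of 0.48 ± 0.32 (95% interval -0.24 to 1.21). Both lie on chromosome 12, and 13.6% of the 50-base windows of Acot1 also occur in Acot2 transcripts, so reads of this pair may be split between them.

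Genes around the pathway were taken from 9 further lists of 115 genes, of which 102 were tested and 0 passed (limma adjusted p under 0.05; 13 at an unadjusted p under 0.05, or 12.7%, against 14.1% of all tested genes). Of the 13, 5 were higher and 8 lower, and the higher ones include Acot3, which reached the filter only through the knockout libraries. The median log2 fold change was 0.01.

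Among 9 PPAR factors and coactivators, which govern transcription of oxidation genes, 0 passed and the median was -0.13. The corepressor Ncor1 had counts of 13068 and 12614 in controls and 12563 and 10969 in knockouts (-0.13 ± 0.07), and Rxra, the partner of PPARs, stood at 0.02 ± 0.07. Ppara itself was near the filter, at 20.5 to 27.6 in controls and 21.1 to 28.1 in knockouts. Others are named after their values were seen. The coactivator gene Ppargc1a had counts of 652 and 632 in controls and 577 and 439 in knockouts, at -0.35 ± 0.12 (limma adjusted p = 0.238). It passed only without knockout replicate 1, at -0.55 (adjusted p = 0.0486). Pparg stood at -0.28 ± 0.11 and Ppard at -0.13 ± 0.06. Of this list, Ncor1, Ppargc1a, Ppargc1b, Pparg and Ppard were below both controls in both knockout libraries, where 23.0% of all tested genes were.

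Among 14 PPAR target genes outside the 40, 9 were tested and 0 passed, with values in both directions. Pdk4, a kinase that shuts off pyruvate dehydrogenase, had counts of 1677 and 1362 in controls and 2447 and 1874 in knockouts, a 1.42-fold difference (0.50 ± 0.13; limma adjusted p = 0.116). It passed without control column 2 (0.65, adjusted p = 0.0441) and without knockout replicate 2 (0.70, adjusted p = 0.00514). The mitochondrial carrier Ucp2 had counts of 13135 and 12954 in controls and 12064 and 11972 in knockouts (-0.12 ± 0.04). Also chosen after seeing the values, Cidea, a lipid droplet gene, had counts of 67.4 and 72.1 in controls and 40.6 and 42.2 in knockouts (-0.74 ± 0.20; limma adjusted p = 0.141). Pdk4 was thus higher, and Cidea and Ucp2 lower, in both knockout libraries, where 22.0% and 23.0% of all tested genes were (plot of PPAR genes). The mean shifts of the acinar, stellate, alpha and other markers given above lie between the same groups, and their part in these values was not tested.

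**Figure D4:**
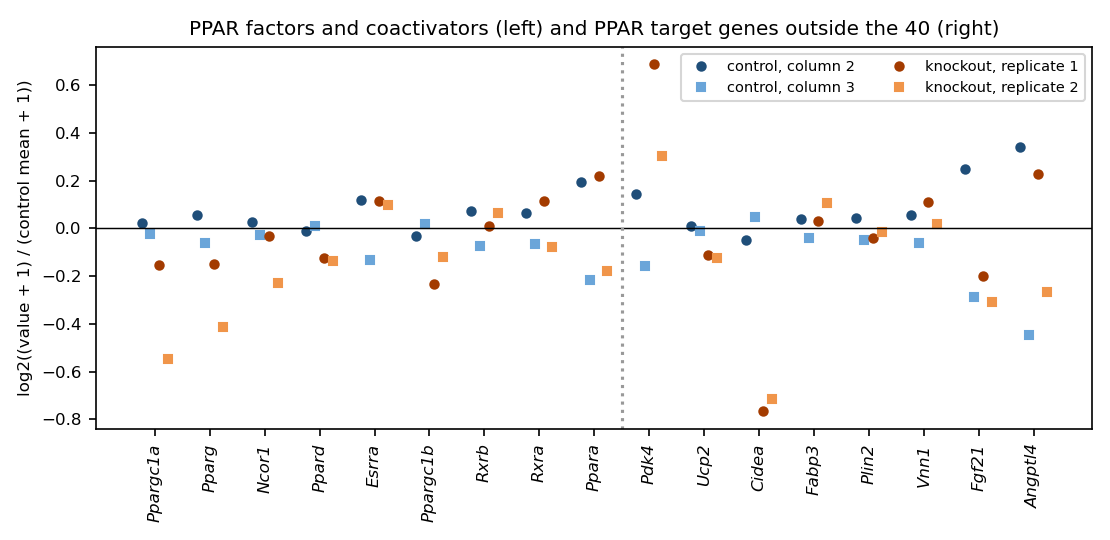
Log2 ratio of each library's value (plus 1) to the control mean (plus 1) for the 9 PPAR factors and coactivators and 8 of the tested target genes outside the 40. Pdk4 is above both controls in both knockout libraries, as are 22.0% of all tested genes. Ncor1, Ppargc1a, Ppargc1b, Pparg, Ppard, Ucp2 and Cidea are below both controls, as are 23.0% of all tested genes. The adjusted threshold was passed by 0 of the genes shown.

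The other 7 lists held 0 called genes. Of 9 genes of malonyl-CoA and its control, 3 were lower at an unadjusted p under 0.05, where 7.34% of all tested genes were: Fasn, the fatty acid synthase (-0.19 ± 0.06), and the AMPK subunit genes Prkab2 (-0.31 ± 0.10) and Prkab1 (-0.16 ± 0.07). The catalytic subunit Prkaa1 stood at -0.04 ± 0.05 and the upstream kinase Stk11 at 0.02 ± 0.05. For uptake and carnitine supply, 10 of 11 genes were tested, with the dehydrogenase Aldh9a1 of carnitine synthesis at 0.07 ± 0.05 and the transporter Slc27a4 at 0.07 ± 0.06. Among ketone body enzymes, 6 of 7 were tested, with Oxct1 at 0.09 ± 0.05 and Acss2 at -0.04 ± 0.06.

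Of the 14 other acyl-CoA dehydrogenases and helpers, Pccb stood at 0.01 ± 0.05 and Ivd, of leucine breakdown, at 0.11 ± 0.06, and Hsd17b10 was the 1 gene at an unadjusted p under 0.05 (0.25 ± 0.09). The 13 genes listed as other peroxins had a median of 0.01, with Pex5l at 0.01 ± 0.05 and Pex7 at 0.02 ± 0.05. These data do not show whether Pex5l acts as a peroxin. Of 21 other peroxisomal enzymes and carriers, 19 were tested. Phyh, of phytanic acid oxidation, stood at -0.02 ± 0.05, and Abcd2, a transporter of very long-chain acyl-CoA, had counts of 278 and 318 in controls and 395 and 525 in knockouts (0.62 ± 0.14; limma adjusted p = 0.0905). Abcd2 passed without knockout replicate 1 (0.82, adjusted p = 0.0159) and with DESeq2 (0.63, adjusted p = 0.0312), in contrast to its relative Abcd3 above at -0.01 ± 0.05, a difference that was not tested. Of 17 other thioesterases and synthetases, 13 were tested, with Acot11 at -0.17 ± 0.10 and Acsf3 at -0.08 ± 0.08. The low gene Acot3 had counts of 3.07 and 7.79 in controls and 14.6 and 12.5 in knockouts (1.28 ± 0.50). It reached the filter only through the knockout libraries where it was high, so this value cannot be read as a difference between genotypes.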

How the data were processed

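Poly(A)-enriched RNA from 4 pools of mouse islets was sequenced, 2 per genotype, per the labels' protocols. CASAVA 1.4, STAR 2.5.1b, featureCounts 1.6.0 and DESeq2 1.22.2, with the build GRCm38, are named without roles in the submitters' processing notes. The annotation, the strand setting and the treatment of reads over 2 genes are not given in the sources used here. Per the file headers, the deposited signal is a normalized count for each gene in each library. All values (100%) became whole, within 0.01 of a read, once divided by what 1 read was worth. The authors' deposited columns also hold a log2 fold change of control over knockout, a test statistic (a score) and a p-value, raw and adjusted. The names of the knockout columns match those samples, while the control columns are numbered 2 and 3 and were tied to the group only.

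limma 3.58.1 (R 4.3.3) was fitted to log2 values with a pseudocount of 1 over the 16589 genes that reached 10 in 2 or more libraries. Variances were moderated with a trend, tests were two-sided, and p-values were adjusted by Benjamini-Hochberg over all of these genes, with a threshold of 0.05. The pseudocount understates the change of low genes. After ±, log2 values have standard errors and levels have SDs. The spread is borrowed largely from other genes (prior 6.85 degrees of freedom, residual 2), and p-values measure only the spread between these pools. Replicates differed by more than sampling noise (chi-square over degrees of freedom 10.1 in controls and 9.85 in knockouts). Count tests were alternatives only, since the values are normalized: on the recovered reads edgeR 4.0.16 called 57 genes higher and 71 lower, and DESeq2 1.42.0 called 113 and 208.

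Exon lengths, positions and overlaps came from GENCODE M21 (GRCm38), where 99.5% of the table's genes were found. Promoter windows came from RefSeq (GRCm38.p6). Shared windows are exact matches of 50 bases between annotated transcripts of different genes. Values per library were given for genes with an adjusted or, up to 6 in each direction, unadjusted p under 0.05, the highest per length of each role, 10 genes fixed by name and the gene that was not tested. Of each further list, called genes or else the 2 most abundant were named, and 1 gene that these rules name is not reported here, nor is 1 of the tested genes of a further list. The 40 genes and the lists were chosen with earlier results of these data known. In 5 simulations of this comparison (55487 genes), changes were planted only in genes that passed the filter. Of these, 68.6% of genes changed 1.5-fold and 84% of those changed 2-fold were recovered, and 9.84% of calls were unchanged genes. Each tested gene was simulated with the dispersion of the trend, without the scatter of single genes around it. Recovery in the measured data may therefore be lower. The alternatives were other pseudocounts, filters, scalings and variance models, each library left out, and the count tests.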

Additional observations from a re-analysis of the deposited data

How the results depend on the processing

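In each alternative fit, 0 of the 39 tested pathway genes passed the threshold, and the lowest adjusted p was 0.0581 (limma, Acsl3 without control column 2). Their median log2 fold change, 0.013 as reported, was 0.032 with a common upper quartile and 0.026 with edgeR. Over all genes, 41 were called higher and 62 lower as reported. These counts became 57 and 55 with a common upper quartile, 1 and 1 with no filter on low values, 19 and 32 with a filter at 50, 0 and 0 with no variance trend, 85 and 124 with robust moderation, and 113 and 208 with DESeq2. Without control column 2 they were 178 and 219, without control column 3 50 and 47, without knockout replicate 1 49 and 76, and without knockout replicate 2 80 and 120, the lone pool being assumed to vary like the other group. Of 546 values of the 39 genes under an alternative, 31 (in 17 genes) had the opposite sign. With a common total, log2 fold changes turned to -0.001 for Acsl4, Pccb and Pex5l, -0.004 for Acat1 and -0.007 for Pex14, and with a common upper quartile to 0.009 for Mlycd, 0.003 for Hadhb and 0.005 for Abcd3 and Pex19. Without control column 2, they turned for Acsl4 (-0.022), Mlycd (0.057), Acads (-0.009), Etfb (0.146), Hadhb (0.006), Acat1 (-0.011), Acox3 (0.010), Abcd3 (0.007), Stk11 (-0.014), Pex5l (-0.042) and Phyh (0.034). Without control column 3, they turned for Cpt1a (0.018), Acaa1a (-0.008), Pex14 (-0.044), Pex19 (0.012), Pex11a (-0.025), Rxra (-0.043), Pccb (-0.032), Acsf3 (0.020) and Ppara (-0.173). Without knockout replicate 1, they turned for Acsl1 (0.004), Acsl4 (-0.031), Mlycd (0.020), Acadsb (-0.010), Acat1 (-0.011), Scp2 (-0.018), Pex11a (-0.027), Rxra (-0.075), Pex5l (-0.016) and Ppara (-0.165). Without knockout replicate 2, they turned for Acaa1a (-0.003), Pex14 (-0.013), Pex19 (0.008), Acot2 (-0.130), Pccb (-0.013) and Pex7 (-0.009). The call of Ggcx was lost with no filter, with no variance trend and with robust moderation, each at -3.35 (limma adjusted p = 0.217, 0.329 and 0.294), and the cause was not tested. No paired analysis was possible because the control columns carry the numbers 2 and 3 and the knockout columns 1 and 2, so the groups share fewer than 2 numbers. With 2 pools per genotype, the printed intervals show how large a change is left possible under the main model, whose spread is borrowed largely from other genes. The intervals were not compared under the alternatives, among them the fit with no variance trend. Counting error is largest for genes with few reads, such as Acot1, and Cpt1b, with 1 to 3 reads, was not tested.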
